A study of Mus musculus with 19 samples.

Results

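The 32 genes described here encode regulators and enzymes with which a cell makes cholesterol and fatty acids. They were chosen by gene symbol, and all 32 were found among the 27299 genes of the table. Their mRNA was measured by bulk RNA-seq in retinal microglia, the resident macrophages of the retina. The 6 control samples came from unlasered mice, and the 6 CNV d3 samples came from mice 3 days after argon laser burns (6 per eye) that start choroidal neovascularization, the ingrowth of vessels from the choroid. The labels give C57BL/6J mice of 8 weeks for both groups, while the methods name heterozygous Cx3cr1 GFP reporter mice, in which GFP takes the place of one copy of Cx3cr1. Cells of the central retina were sorted as CD45+ (low in the methods) CD11b+ CX3CR1+ Ly6C- Ly6G-. The labels do not say whether each sample was a separate mouse, so the p-values measure the spread between samples, part of which may be technical.

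Cholesterol is built from acetyl-CoA through mevalonate, isoprenoids, squalene and lanosterol, and fatty acids are built from the same precursor by carboxylation, chain growth, elongation and desaturation. The transcription factors SREBP1 and SREBP2, encoded by Srebf1 and Srebf2, are escorted out of the endoplasmic reticulum by SCAP when sterol is scarce and are held back by the INSIG proteins when it is plentiful, and the freed factors switch on most genes of both branches. Macrophages that take up lipid-rich debris also have to store or export the cholesterol they gain, which the liver X receptors and their target genes are known for.

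The stretches of promoter below show the letters by which SREBP targets are known, a sterol regulatory element (searched as TCACNCCAC) and the CCAAT box (searched as CCAAT), which binds the cofactor NF-Y. Hmgcs1 is shown as the member with both motifs and Mvk as a member with many CCAAT boxes. Fasn and Acly are shown as called genes of fatty acid synthesis (below) whose upstream bases are free of annotated exons. The sequences come from RefSeq on GRCm38.p6 and cover the 180 bases before the annotated start, at chr13:119690171-119690350 (plus strand), chr5:114444089-114444268 (plus strand), chr11:120824548-120824727 (minus strand) and chr11:100528001-100528180 (minus strand). Capitals mark a match, and ATTGG is a CCAAT box read on the other strand.
Hmgcs1: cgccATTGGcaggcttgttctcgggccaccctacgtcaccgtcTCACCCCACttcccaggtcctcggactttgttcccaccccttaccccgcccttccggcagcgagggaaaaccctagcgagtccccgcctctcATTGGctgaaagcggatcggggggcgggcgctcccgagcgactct
Mvk: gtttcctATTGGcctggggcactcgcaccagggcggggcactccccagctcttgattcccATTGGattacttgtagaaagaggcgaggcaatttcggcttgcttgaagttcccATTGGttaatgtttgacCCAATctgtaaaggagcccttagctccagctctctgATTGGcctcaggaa
Fasn: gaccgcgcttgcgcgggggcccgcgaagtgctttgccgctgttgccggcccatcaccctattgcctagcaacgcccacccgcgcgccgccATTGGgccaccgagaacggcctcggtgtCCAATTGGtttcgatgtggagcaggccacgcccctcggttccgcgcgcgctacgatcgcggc
Acly: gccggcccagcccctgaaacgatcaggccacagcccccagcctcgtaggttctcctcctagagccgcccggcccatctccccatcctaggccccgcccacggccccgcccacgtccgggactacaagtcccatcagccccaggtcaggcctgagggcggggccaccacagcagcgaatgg

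The RefSeq table held a window of 300 bases, from 250 before to 50 after the start, for 26 of the 32 genes. A CCAAT box on either strand was found for 22 of these 26 members (84.6%), against 41.1% of the 27025 genes with a window. The sterol regulatory element occurred in 1 member, Hmgcs1, where it starts at base -137, and in 1.44% of genes. The E-box TCACGTGA occurred in 0 members and in 1.13% of genes, and the liver X receptor element, 2 direct repeats of AGGTCA set 4 bases apart, in 0 members and in 0.015% of genes. Msmo1 and Fasn had 3 CCAAT boxes each, the one box of Acly lay after the start, and Elovl6 and Fads2 had none. A missing match says only that these letters are not in the window.

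The deposited values are normalized counts, read counts divided by a size factor that evens out sequencing depth. The samples held 10963178 to 22335233 reads on genes in control and 23532260 to 29523018 in CNV d3, and 1 read was worth 0.739 to 1.99 normalized counts. The 10 microglial markers summed to 1324540 to 1475910 in control and to 735281 to 1090820 in CNV d3, and 7 of them were lower in CNV d3. All 12 markers of dividing cells were higher (sum 1797 to 3580.3 in control, 14873 to 30396 in CNV d3), as were 4 of 8 monocyte markers (42.2 to 324 against 571 to 2890.1, with 3 of them at 0 in every control). None of 10 photoreceptor markers passed the test, and their sum spread from 807 to 7419 in control and from 615 to 12962 in CNV d3. All 10 nevertheless had positive log2 fold changes in limma (median 1.16). Sag, at 2.05, was the only one called by edgeR (adjusted p = 0.0198) and by DESeq2 (adjusted p = 0.00248). Of the other lists, Mueller glia and astrocytes had 2 of 8 markers higher and 1 lower, endothelium 1 higher and 1 lower of 7, and retinal pigment epithelium, neutrophils and lymphocytes 0 called. Reads of the Y-linked gene Ddx3y were found in CNV d3 replicates 4, 5 and 6 and in none of the other 9 samples. Xist, the RNA of the inactive X chromosome, had 0 to 0.866 normalized counts in CNV d3 replicates 4, 5 and 6. It had 6522 to 9795 in the controls and 3116 to 5245 in CNV d3 replicates 1, 2 and 3. By these genes, CNV d3 replicates 4, 5 and 6 were male and the other 9 samples female. Sex was thus not balanced between the groups and is partly mixed with the laser in the main comparison.

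A gene was called higher or lower when its adjusted p (limma on log2(normalized counts + 1), Benjamini-Hochberg over all 27299 genes) was under 0.05. It was called a DEG, a differentially expressed gene by the limits of the study, when its log2 fold change also lay beyond 1.5. Of the 32 genes, 5 were called higher in CNV d3 (Acly, Fasn, Scd2, Elovl6 and Fads2), 1 was called lower (Msmo1) and 26 were not called. Over all genes, 8.29% were called higher and 4.57% lower. Among the 9713 genes with a mean of at least 100 normalized counts, 15.3% were called higher and 10.8% lower. Of the 26 members that reached this level, 3 were called higher (Acly, Fasn and Scd2) and 1 lower (Msmo1), while Elovl6 and Fads2 lay under it. Elovl6 and Fads2 were increased DEG and 0 members were decreased DEG, where 3.91% and 1.07% of all genes were. The lowest CNV d3 sample was above the highest control for Acly, Elovl6 and Fads2, and no member had the reverse, against 4.64% and 2.83% of all genes. At a mean of at least 100 normalized counts, 3.54% and 1.16% of genes were increased and decreased DEG, and 9.70% and 6.46% had groups fully apart in these directions. The median log2 fold change was 0.25 over the 32 members and 0.15 over all genes. In bulk samples, more cells of one kind and more mRNA per cell cannot be told apart.

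**Figure D1:**
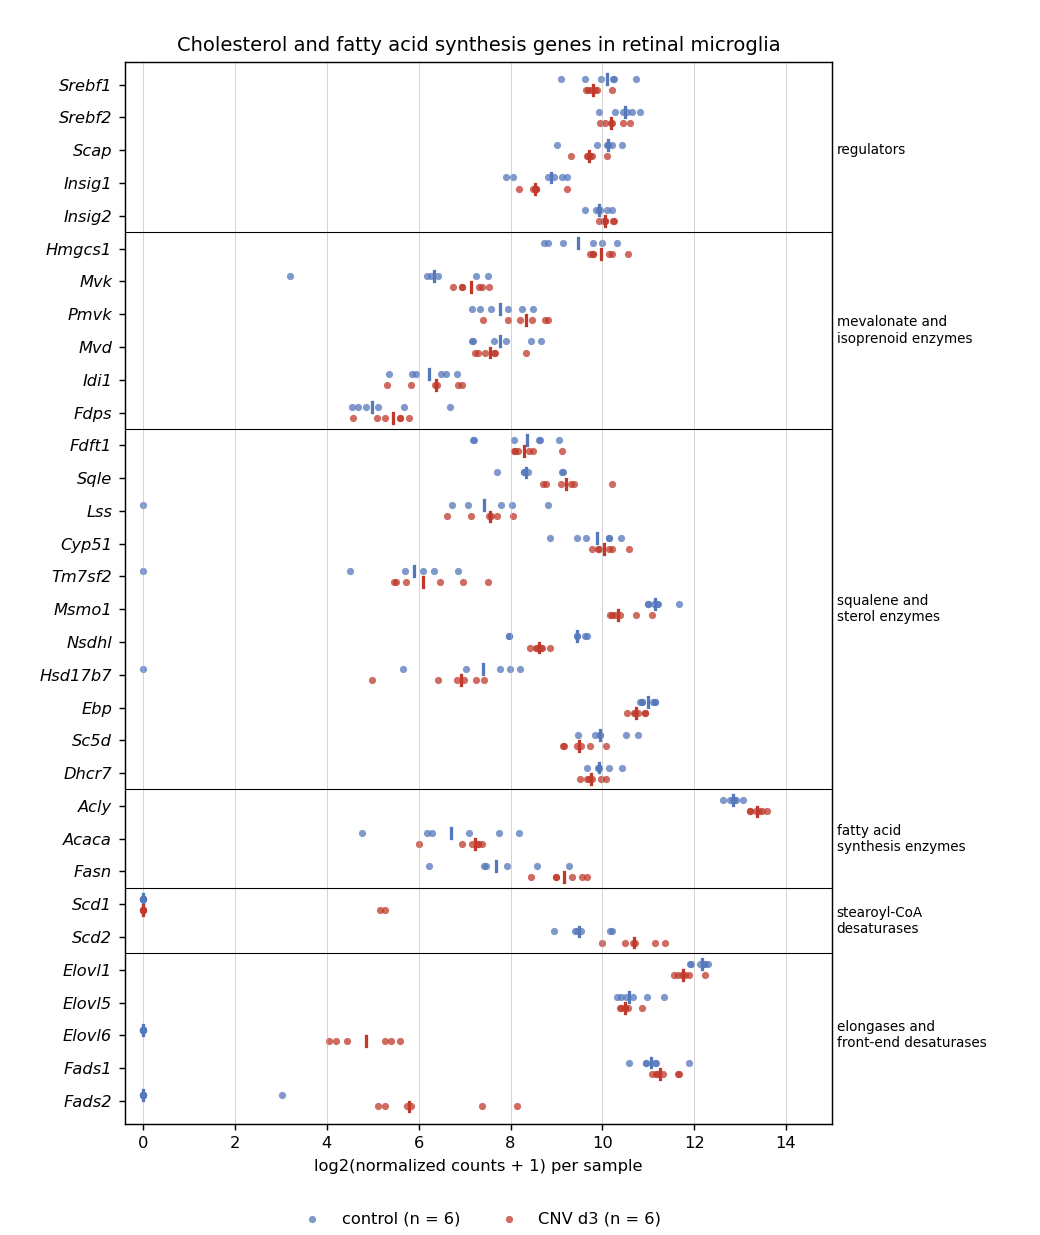
Levels of the 32 genes by role, as log2(normalized counts + 1), with 1 point per sample (6 control, 6 CNV d3) and a bar at the median of each group. Acly is the highest of them in both groups, Elovl6 and Scd1 are at 0 in all controls, and the groups stand fully apart for Acly, Elovl6 and Fads2.

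**Figure D2:**
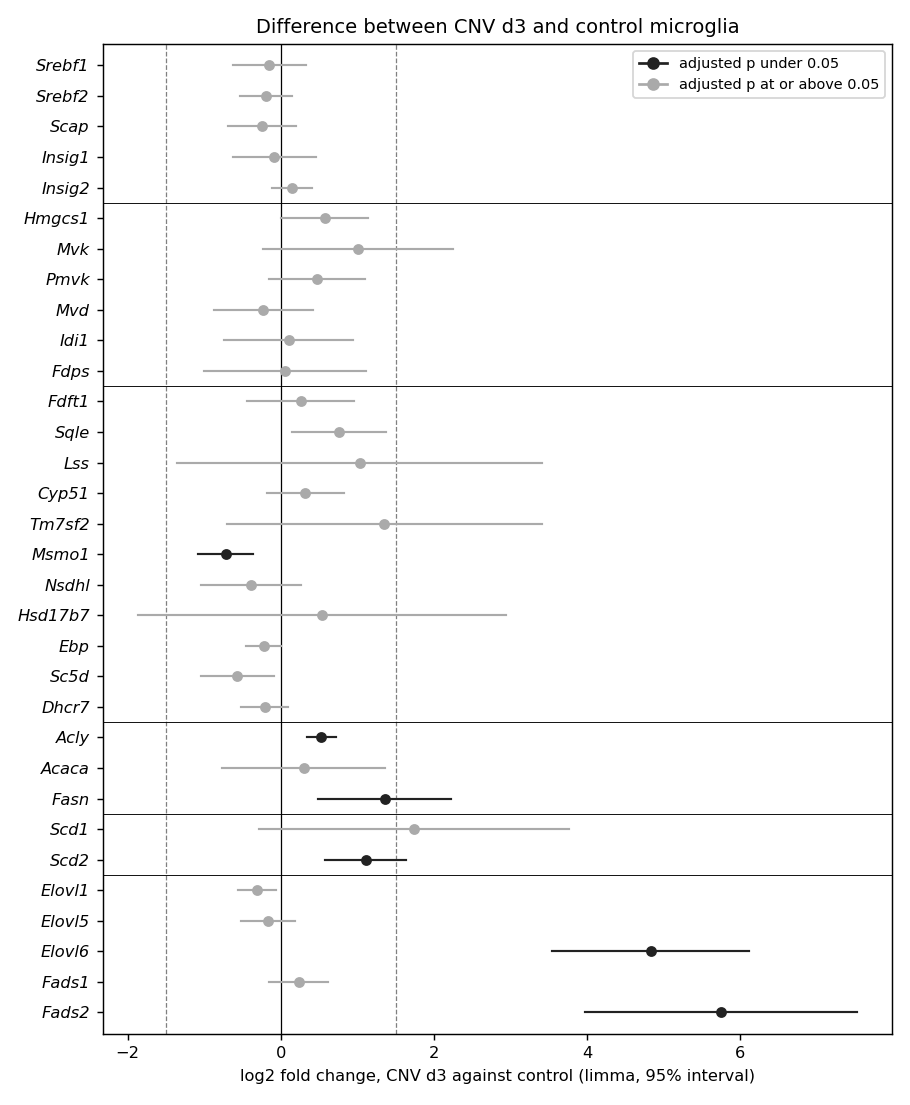
Log2 fold change of each gene (CNV d3 against control, limma) with its 95% interval, in black where the adjusted p was under 0.05. The dashed lines mark the DEG limit of 1.5. Of the 6 black points, 5 lie to the right, in genes of fatty acid synthesis, elongation and desaturation, and 1 lies to the left, Msmo1 of the sterol branch.

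Among the regulators, 0 of 5 were called, and their log2 fold changes lay between -0.25 and 0.15. Srebf2, the regulator with the most normalized counts (per kilobase Insig2 was higher) and the factor that favours sterol genes, stood at 1814, 1403, 1607, 973, 1485 and 1233 normalized counts in control replicates 1 to 6 and at 994, 1159.8, 1399, 1175, 1071 and 1563 in CNV d3 replicates 1 to 6. The groups overlapped over most of their range, with a log2 fold change of -0.20 (95% interval -0.54 to 0.14, adjusted p = 0.488). Srebf1, the factor that favours fatty acid genes, had 1077 ± 402 in control and 919 ± 135 in CNV d3 (SD, n = 6 in each group here and below), a log2 fold change of -0.15 (-0.63 to 0.33). Scap, the escort, had 1038 ± 293 and 847 ± 148. The sterol-dependent retention factors had 433 ± 149 and 395 ± 105 (Insig1) and 992 ± 139.7 and 1094 ± 98.7 (Insig2). Insig2 had the narrowest interval of the 5, from -0.11 to 0.41. Levels of mRNA do not show how much of the SREBP proteins was cleaved.

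The mevalonate and isoprenoid enzymes, which lead from acetyl-CoA to farnesyl diphosphate, held 0 called genes among 6. Hmgcs1, the HMG-CoA synthase at the entry of the branch, had 1021, 1271, 420.0, 448, 883 and 566 normalized counts in control and 893, 842, 1508, 1134, 885 and 1175 in CNV d3. Of the 6 controls, 3 lay within the CNV d3 range. Hmgcs1 had a log2 fold change of 0.58 (SE 0.27, adjusted p = 0.192). The kinases Mvk (95.6 ± 62.2 against 143 ± 30.4) and Pmvk (233 ± 84.4 against 323 ± 109) had log2 fold changes of 1.00 and 0.47. The decarboxylase Mvd had 246 ± 109.8 against 200.1 ± 63.4. Idi1, the isomerase, ranged from 39.6 to 113 in control and from 38.4 to 123 in CNV d3. Reads of Idi1 are partly ambiguous, since 25.3% of its stretches of 50 bases, the read length, also occur in other annotated genes. Fdps, the farnesyl diphosphate synthase, ranged from 22.5 to 102 and from 22.6 to 54.0. Its level is uncertain, since 26.7% of its exon bases overlap those of Gm43738 and reads in exons of more than 1 gene were not counted. Summed over the 6 enzymes, the level was 1462 ± 335 in control and 1862 ± 418 in CNV d3.

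The squalene and sterol enzymes held the one gene called lower among 11. Msmo1, the sterol oxidase that starts the removal of the methyl groups at carbon 4 (ENSMUSG00000031604, chr8:64718139-64733792, minus strand), had 2217, 2380.1, 3269.8, 2322, 2035 and 2049 normalized counts in control and 1345, 1185, 2153, 1696, 1233 and 1152 in CNV d3. Every CNV d3 sample but replicate 3 lay below the lowest control. The mean of Msmo1 fell by 38.6%, with a log2 fold change of -0.72 (SE 0.17, adjusted p = 0.00916). The enzymes that act with it in the same demethylation were not called. Nsdhl had 582 ± 263 in control and 396 ± 41.9 in CNV d3, and Hsd17b7 had 157 ± 117 and 113 ± 50.1. The controls of Nsdhl were split, with 2 samples at 248 and 4 at 694 to 814, while the CNV d3 samples lay between 341 and 465.

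The other early enzymes of this group, from squalene to the sterol reductase, were not called. Fdft1, the squalene synthase, had 314 ± 153 in control and 347 ± 110.1 in CNV d3, with 18.3% of its exon bases overlapping Ctsb. Sqle, the squalene epoxidase and a rate-limiting enzyme, had 565, 312, 555, 208, 314 and 334 normalized counts in control and 439, 662, 1189, 415, 548 and 640.5 in CNV d3. The CNV d3 samples 2, 3 and 6 lay above every control, and the log2 fold change was 0.76 (SE 0.29, adjusted p = 0.104). Sqle was called by DESeq2 on the recovered reads (adjusted p = 0.0467) and not by edgeR (0.0811). Lss, the lanosterol synthase, ranged from 0 to 448 in control and from 96.9 to 264 in CNV d3, and its log2 fold change of 1.03 turned to -0.095 in edgeR, with means of 195 and 180.3. Cyp51, the lanosterol demethylase, had 928 ± 332 and 1106 ± 235, and Tm7sf2, a sterol reductase, ranged from 0 to 115 and from 42.8 to 183.

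The late enzymes had negative log2 fold changes and were not called either. Ebp, the sterol isomerase and the sterol enzyme of highest level per length, had 2042 ± 221 in control and 1745 ± 183 in CNV d3 (log2 fold change -0.23, adjusted p = 0.200). Sc5d, the desaturase that follows, had 980.2, 994, 1469, 1762, 703 and 921 normalized counts in control and 849.6, 562, 1088, 693, 744 and 569.9 in CNV d3. Of the 6 controls, 4 lay within the range of the CNV d3 samples, the log2 fold change was -0.57 (SE 0.22, adjusted p = 0.118), and DESeq2 called it (adjusted p = 0.0461). Dhcr7, the reductase that makes cholesterol from its precursor 7-dehydrocholesterol, had 1032 ± 192 and 888 ± 127. Over all 17 sterol enzymes, the summed level was 10666 ± 1450 in control and 9586 ± 1415 in CNV d3, a difference smaller than the SD of either group.

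The fatty acid synthesis enzymes were called higher for 2 of 3. Acly, the citrate lyase that supplies cytosolic acetyl-CoA to both branches (ENSMUSG00000020917, chr11:100476353-100528000, minus strand), had 6353, 7688, 7299, 8588, 7514 and 6988 normalized counts in control and 9512, 10848, 12307, 9527, 10390.2 and 11418 in CNV d3. All CNV d3 samples lay above all controls. The mean of Acly was 44.1% higher, with a log2 fold change of 0.53 (SE 0.09, adjusted p = 0.00113), and it stayed called whichever of the 12 samples was dropped. Fasn, the fatty acid synthase that makes palmitate (ENSMUSG00000025153, chr11:120805846-120824547, minus strand), had 171, 241, 378, 176, 73.3 and 618 in control and 748, 507, 508, 644, 348 and 815 in CNV d3. Control replicate 6 lay among the CNV d3 samples and CNV d3 replicate 5 among the controls. Fasn rose by a log2 fold change of 1.35 (SE 0.41, adjusted p = 0.0402), but when each sample was dropped in turn it was called in 2 of 12 fits, those without control replicate 3 or 6. In edgeR its adjusted p was 0.0601.

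Acaca, the acetyl-CoA carboxylase that commits acetyl-CoA to fatty acids, had 288, 215, 72.1, 26.4, 137 and 77.5 normalized counts in control and 63.5, 142, 123, 155, 166 and 155 in CNV d3. The groups had nearly the same mean, 136 ± 98.7 and 134 ± 37.5, and the interval of the log2 fold change ran from -0.77 to 1.36. Reads of Acaca are partly ambiguous, since 30.4% of its stretches of 50 bases, the read length, also occur elsewhere in annotated genes. Acly, Fasn and Acaca together summed to 7817 ± 647 in control and 11396 ± 1087 in CNV d3, of which Acly was the larger part in every sample.

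**Figure D3:**
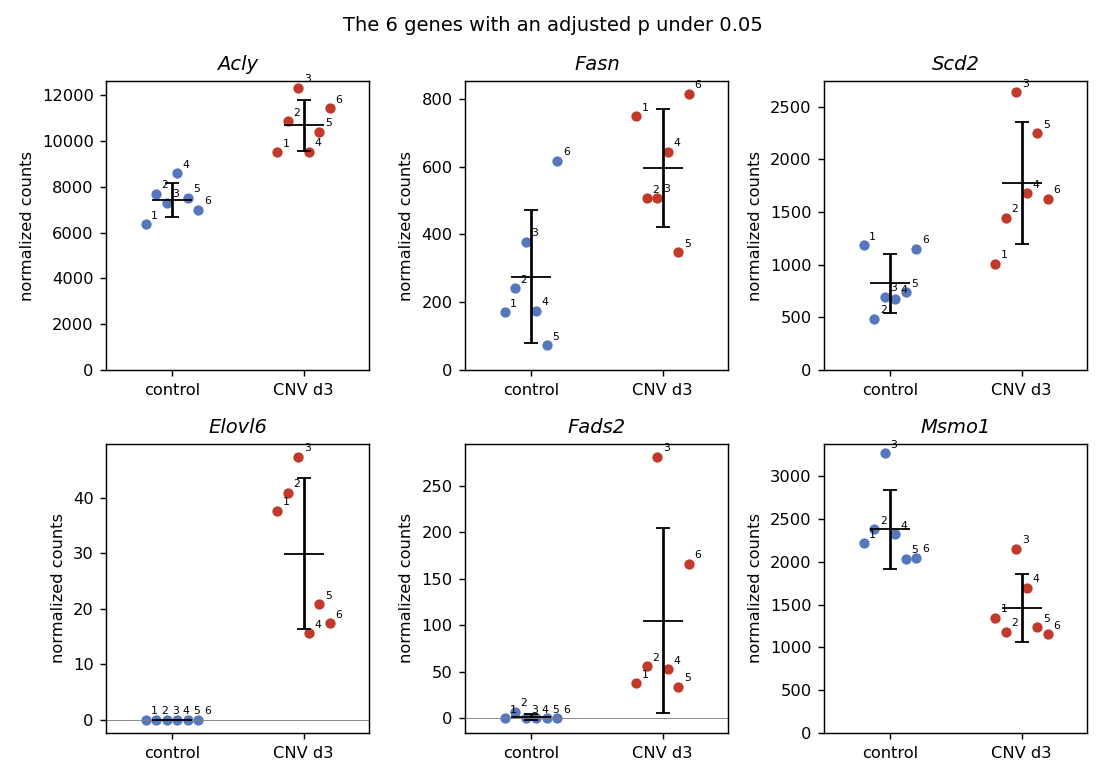
Normalized counts of the 6 called genes in each control and CNV d3 sample (n = 6 each), numbered by replicate, with the mean and SD of the group as a bar. Acly, Elovl6 and Fads2 do not overlap between the groups, and CNV d3 replicate 3 is the highest CNV d3 sample for Acly, Scd2, Elovl6, Fads2 and Msmo1.

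The stearoyl-CoA desaturases put the first double bond into saturated fatty acids. Scd2, the form best known from the brain (ENSMUSG00000025203, chr19:44293674-44306864, plus strand), had 1185, 489, 698, 680.0, 739 and 1154 normalized counts in control and 1011, 1445, 2635, 1679, 2249.9 and 1628 in CNV d3. Every CNV d3 sample but replicate 1 lay above the highest control. Scd2 rose by a log2 fold change of 1.11 (SE 0.25, adjusted p = 0.00802), from 824 ± 281 to 1775 ± 581. Scd1, the form best known from liver and fat, was at 0 in all 6 controls and in 4 CNV d3 samples and had 34.9 and 37.4 in CNV d3 replicates 3 and 6. It was not called (adjusted p = 0.284). The genes share some sequence, with 4.56% of the 50-base stretches of Scd1 and 3.97% of those of Scd2 found in other genes of the family or elsewhere.

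The elongases and front-end desaturases lengthen fatty acids and add further double bonds. The 3 members of high level were not called. Elovl1, which makes very long saturated chains, had 5067, 3846, 4756, 4465, 4797 and 3906 normalized counts in control and 4818, 3771, 2998, 3199.8, 3389.7 and 3571 in CNV d3. CNV d3 replicate 1 lay among the highest controls while the other 5 lay below the lowest control. The log2 fold change of Elovl1 was -0.31 (SE 0.12, adjusted p = 0.0987), and without CNV d3 replicate 1 it was -0.40 and called (adjusted p = 0.0169). Elovl5, an elongase of polyunsaturated chains, had 1717 ± 504 in control and 1489 ± 191 in CNV d3. Fads1, the delta-5 desaturase, had 2304 ± 769.8 and 2633 ± 466, and its highest value of all was in control replicate 5 (3775).

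Elovl6 and Fads2 had the largest differences of the 32 genes and low levels. Elovl6, which lengthens palmitate (ENSMUSG00000041220, chr3:129532355-129638495, plus strand), was at 0 in all 6 controls and had 37.7, 41.0, 47.4, 15.6, 20.8 and 17.4 normalized counts in CNV d3. Set against 3 reads in the shallowest control (5.96 normalized counts), the mean of 30.0 in CNV d3 was at least 5.03-fold higher (limma adjusted p = 0.000129). Fads2, the delta-6 desaturase that starts the making of long polyunsaturated fatty acids (ENSMUSG00000024665, chr19:10062765-10101746, minus strand), was at 0 in 5 controls, had 7.09 in control replicate 2, and had 37.7, 56.0, 281, 52.8, 33.6 and 166 in CNV d3. All CNV d3 samples lay above all controls for both genes. The fitted log2 fold change of Fads2 was 5.75 (SE 0.83, adjusted p = 0.000384). Its size depended on the value added before the log, from 3.25 with 8 to 6.58 with 0.5, while the gene stayed called. Fads2 was highest in CNV d3 replicates 3 and 6, in which Scd1 was also found. The monocyte markers (4 of 8 higher) and dividing-cell markers (12 of 12 higher) given above also differed between the groups. The 10 photoreceptor markers were not called but all had positive log2 fold changes. Whether other cells gave part of these reads was not tested.

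Per kilobase of exon, the order of the levels showed which enzymes the microglia carried most mRNA of. In control the leading members were Elovl1 (1641 ± 184 normalized counts per kilobase), Acly (1403 ± 141), Ebp (884 ± 95.7), Elovl5 (488 ± 143) and Fads1 (479 ± 160.0), of which Elovl5 and Fads1 did not differ beyond their spread. In CNV d3 Acly came first (2021 ± 207), then Elovl1 (1329.7 ± 236) and Ebp (756 ± 79.3). Scd2 went from rank 15 (151 ± 51.5) to rank 6 (325 ± 106), and Msmo1 from rank 6 (387 ± 74.6) to rank 9 (238 ± 63.9). The lowest in control were Elovl6 and Scd1, at 0, then Fads2 (0.358 ± 0.878) and Acaca (7.95 ± 5.78). The lowest in CNV d3 were Scd1 (2.46 ± 3.82), Elovl6 (4.66 ± 2.12) and Acaca (7.84 ± 2.20).

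Within CNV d3, 1 sample was the highest for many members. CNV d3 replicate 3 had the highest CNV d3 value for 16 of the 32 members, and for 12 of the 26 with a mean of at least 100 (46.2%), where it was highest for 21.5% of the 9713 genes of that level. The members it led included Hmgcs1, Sqle, Cyp51, Fdft1, Msmo1 and Insig1 of the sterol branch as well as Acly, Scd2 and Fads2. In replicate 3 the 17 sterol enzymes summed to 12454 normalized counts, against 8813 to 9266 in the other 5 CNV d3 samples. The same replicate had the lowest sum of microglial markers (735281) and the highest sum of monocyte markers (2890.1) of all samples. Its Csf1r was 221869 and its Plac8 1447 normalized counts. Whether other cells gave part of its high values was not tested. Among the controls, replicate 1 was the highest for 8 of the 26 (30.8%), against 12.2% of genes of that level. Control replicate 3 was close behind, with 7 of the 26 (26.9%), against 23.0% of genes. These shares describe single samples, in values that are not independent between genes. On the log2 scale, 22 of these 26 members had the larger SD in control, a share near the 81.2% of all genes of that level.

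**Figure D4:**
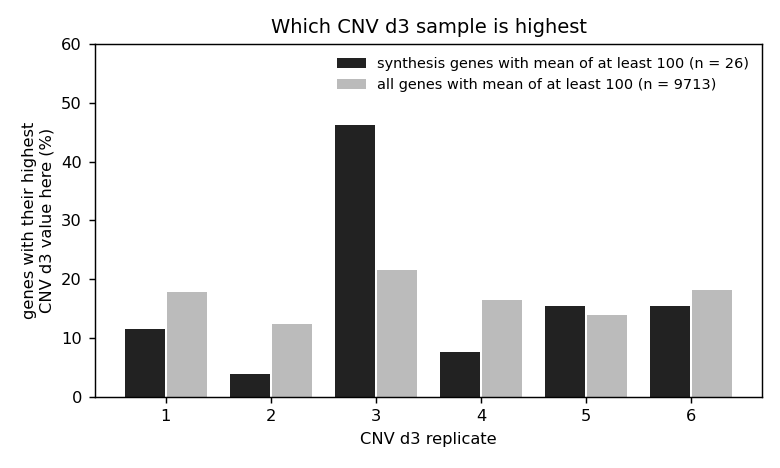
Share of genes (%) whose highest CNV d3 value fell in each CNV d3 replicate, for the 26 synthesis genes and the 9713 genes of all kinds with a mean of at least 100 normalized counts. Replicate 3 has the largest share of the synthesis genes, 46.2%, against 21.5% of all genes.

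Since only CNV d3 replicates 4, 5 and 6 held Ddx3y reads, the comparison was repeated with CNV d3 replicates 1, 2 and 3 against all 6 controls, an alternative added after the data were seen. Acly (log2 fold change 0.55, adjusted p = 0.0257), Elovl6 (adjusted p = 2.77e-05) and Fads2 (adjusted p = 0.0114) were still called higher. Scd2 (1.00, adjusted p = 0.186), Fasn (1.37, adjusted p = 0.277) and Msmo1 (-0.64, adjusted p = 0.145) kept their direction at a like size and were not called. This fit had 3 CNV d3 samples in place of 6. With all samples kept and Ddx3y as a covariate, 3 members were likewise called higher and 0 lower. Whether sex or the smaller number of samples lay behind the lost calls was not tested. Nsdhl and Ebp lie on the X chromosome, and neither was called in any fit.

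Of the genes around the pathway, lists of related genes were read in the same fit. Their counts stand beside shares of 8.29% called higher and 4.57% called lower over all genes. Among genes with a mean of at least 100 normalized counts, these shares were 15.3% and 10.8%. The list of other sterol synthesis and SREBP cleavage genes had 2 called higher and 2 called lower of 13 measured, all 4 named after their values were seen. Higher were Mbtps1, the first protease that cleaves SREBP (log2 fold change 0.58, adjusted p = 0.00717), and Cyb5r3, a reductase that passes electrons to sterol enzymes (0.82, adjusted p = 0.00244). Lower were Por, the electron donor of CYP51 and SQLE (-0.57, adjusted p = 0.00300), and Ggps1, which makes geranylgeranyl diphosphate (-0.64, adjusted p = 0.00912). Among 5 genes of sterol uptake and transport under SREBP control, 0 were higher and 1 was lower, Lpin1, a phosphatidate phosphatase (-0.88, adjusted p = 0.0111).

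The liver X receptors and efflux genes had 4 called higher and 1 called lower of 8, with a median log2 fold change of 0.88. Apoe, the apolipoprotein that carries exported cholesterol, had 20865 ± 7381 normalized counts in control and 68945 ± 16057 in CNV d3 (1.77, adjusted p = 9.45e-05). The exporters Abca1 (1.48, adjusted p = 0.000133) and Abcg1 (1.96, adjusted p = 8.23e-05) were higher too, and all CNV d3 samples lay above all controls for Apoe, Abca1 and Abcg1. The receptor gene Nr1h3 was low and uneven, with 0 to 85.3 in control and 12.5 to 57.7 in CNV d3 (adjusted p = 0.0494 in limma, 0.447 in edgeR). Lpcat3, a phospholipid acyltransferase, was lower (-0.44, adjusted p = 0.00399). Srebf1, which is also known as a liver X receptor target, was not called, as given above.

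Among 23 other genes of fatty acid synthesis and elongation, 5 were called higher and 3 lower. The increased DEG were Elovl2 (0 in all controls, 0 to 62.5 in CNV d3), Elovl4 (0 to 99.1 against 51.8 to 305) and Fads3 (0 to 45.1 against 75.2 to 109), which like Elovl6 and Fads2 were low in control. In edgeR the adjusted p was 0.0200 for Elovl2, 0.104 for Elovl4 and 0.0843 for Fads3. Slc25a1, the carrier that brings citrate to ACLY, was higher (0.62, adjusted p = 0.0106), as was Hacd4, a dehydratase of elongation (0.70, adjusted p = 0.00774). The 3 genes called lower are linked to the control of lipogenesis: Thrsp (-0.98, adjusted p = 0.00784), Mid1ip1 (-0.38, adjusted p = 0.0323) and Mlxipl, the factor ChREBP (-0.55, adjusted p = 0.0203).

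Of 19 genes of fatty acid oxidation, 7 were called higher and 0 lower. A mean of at least 100 normalized counts was reached by 17 of the 19. At that level 15.3% of all genes were called higher and 10.8% lower. The median log2 fold change of the list was 0.51, against 0.15 over all genes. Examples are Cpt1a, the carnitine transferase at the entry of mitochondria (0.91, adjusted p = 0.0114), and Acadl, an acyl-CoA dehydrogenase (0.90, adjusted p = 0.000925). Of 20 acyl-CoA synthetases and glycerolipid genes, 3 were called higher and 1 lower. Plin2, a coat protein of lipid droplets, had 1511 ± 241 in control and 2838 ± 616 in CNV d3 (0.89, adjusted p = 0.00203), Acsl5 and Agpat3 were higher by 0.46 and 0.56 on the log2 scale, and Agpat2 fell by 0.80. The differences between lists were not tested.

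**Figure D5:**
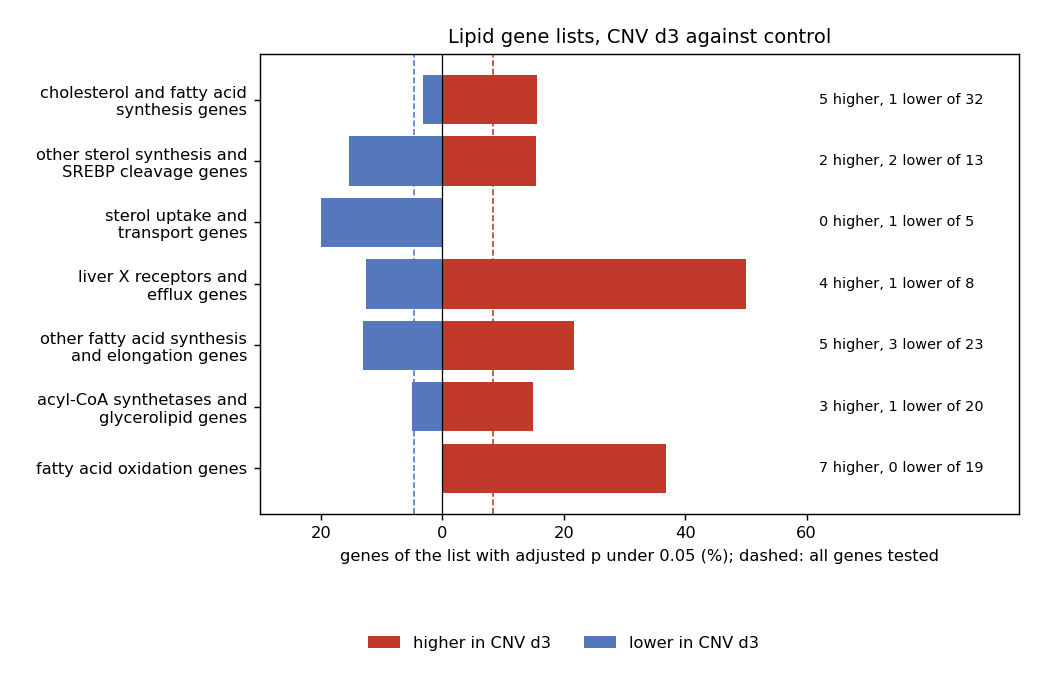
Share (%) of each lipid gene list that was called higher (right) or lower (left) in CNV d3, with the counts printed beside the bars. The dashed lines give the share of all 27299 genes (8.29% higher, 4.57% lower), and the synthesis genes had 5 of 32 called higher and 1 of 32 called lower. Among genes with a mean of at least 100 normalized counts, which 26 of the 32 reached, 15.3% were called higher and 10.8% lower.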

How the data were processed

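The authors sorted the cells, amplified cDNA from picogram amounts of RNA by template switching and PCR, prepared libraries with a transposase and sequenced single reads of 50 bases. They mapped the reads with STAR 2.7.2b to GRCm38.p6 with Gencode annotation, merged the alignments of each sample, counted with featureCounts 1.6.4 and dropped genes without reads in any sample. Counting at default settings ignores strand and skips any read shared by exons of several genes, so overlapping genes have uncertain counts. The deposited signal of a gene is its number of reads over the DESeq2 1.22.2 size factor of the sample. The authors also deposited group means, log2 fold changes and adjusted p-values, none of which were used.

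Groups and replicate numbers came from the labels, in which all controls and CNV d3 replicate 4 stand in 2 parts, each counted as 1 sample. Every value was a whole multiple of the value of 1 read (100% within a tolerance of 0.01), so reads were recovered. Total reads on genes ranged from 10963178 to 29523018, and floors of 3 reads cover counting error only, as PCR copies were not marked. Normalized values are not counts, so the comparison used limma 3.58.1 (R 4.3.3, trend, two-sided) on log2(value + 1) over 27299 genes. Alternatives were pseudocounts of 0.5 and 8, a filter of 10 normalized counts in 6 samples, TMM and total-read scaling, edgeR 4.0.16 and DESeq2 1.42.0 on the recovered reads, a replicate block, Ddx3y as a covariate, thinning and leaving out each sample. The tools were tested on simulated data. All members are named, and of the other lists DEG and up to 3 genes of highest level. Further called genes of these lists were named after their values were seen. Members and lists were chosen with earlier results of these data known. Exon positions are from Gencode M21, also on GRCm38. Promoters of Fdps, Fdft1, Sqle, Scd1, Scd2 and Fads1 were not used here. One list of related genes is not reported here.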

Additional observations from a re-analysis of the deposited data

Results flagged for a closer look

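Of 62 groups of 6 samples, 1 per gene and condition with values that differ, 8 had a highest or lowest sample farther from the rest than Dixon's limit for 6 samples, where about 3.1 are flagged by chance. The flagged values of Lss, Tm7sf2, Hsd17b7, Mvk and Fads2 were 0 or at most 8.12 normalized counts. Over all samples the means of Lss, Hsd17b7 and Mvk were 187, 135 and 119, so these 3 genes were not at low counts elsewhere. Control replicate 5 had 0 normalized counts for Lss, with 105 to 448 in the other controls, and also 0 for Tm7sf2, with 21.8 to 115 in the others. Control replicate 4 had 0 for Hsd17b7 and 8.12 for Mvk, where the others had at least 49.6 and 71.9. Control replicate 2 had the only reads of Fads2 among the controls, 7.09. Msmo1 was highest in control replicate 3 (3269.8), and Insig1 was highest in CNV d3 replicate 3 (599.5). Acaca was lowest in CNV d3 replicate 1 (63.5).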

How the results depend on the processing

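Of 384 values from fits that left out 1 sample, 358 kept their direction and side of the threshold, and of 351 values under the other settings, 328 did. Leaving out 1 sample, 4 to 5 members were called higher, 1 to 2 lower (2 without CNV d3 replicate 1, where Elovl1 was added), 2 to 3 were increased DEG (3 without control replicate 3 or 6, where Fasn was added) and 0 were decreased DEG. DESeq2 called 2 members lower, Msmo1 and Sc5d. With Ddx3y as a covariate, 3 members were called higher and 0 lower, and with CNV d3 replicates 1, 2 and 3 alone, 3 and 0. Fasn was also lost with a pseudocount of 8 (adjusted p = 0.0551), in edgeR (0.0601) and after thinning (0.0883). The other lists had 21 genes called higher and 9 lower in limma and 20 and 9 in edgeR. Some genes that were not called changed sign, among them Lss (1.03 in limma) and Hsd17b7 (0.54). Fdps had log2 fold changes of -0.10 in edgeR and -0.12 in DESeq2, with the covariate and with CNV d3 replicates 1, 2 and 3 alone, and -0.087 to 0.34 leaving out samples. Lss had -0.095 and -0.11 in edgeR and DESeq2, and -0.25 to 1.51 leaving out samples. Hsd17b7 had -0.46 and -0.48, and -0.68 to 0.96. Acaca had -0.0076 in edgeR, -0.022 in DESeq2, -0.0077 with the covariate, -0.0073 with CNV d3 replicates 1, 2 and 3 alone, and -0.091 to 0.59 leaving out samples. Leaving out samples, Srebf1 ranged from -0.33 to 0.00039, Insig1 from -0.24 to 0.023 and Idi1 from -0.061 to 0.30. The causes were not tested. With the replicate number as a block, 5 members were called higher, 1 lower, 2 as increased and 0 as decreased DEG. Same-numbered samples did not deviate together to a large extent (correlations of -0.05 to 0.07 over 9713 genes). The labels do not say whether the numbers pair the samples, and these correlations cannot exclude a pairing of small effect.

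At 1.99 normalized counts per read in the shallowest control, values of Elovl6, Fads2, Scd1 and Fdps rest on few reads, and reads were copied by PCR before counting.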
